A study of Sus scrofa with 8 samples.

Results

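The T cell genes described here are 31 genes of the T cell receptor complex, its coreceptors, its signalling proteins and T cell transcription factors. They were chosen by pig gene symbol from general knowledge of T cells, with earlier results of these data known. Of these, 27 were matched to the 21064 Entrez genes in the count tables, each represented by its transcript with the highest mean count. CD5, CD7, ZAP70 and TRAT1 had no match and were not analysed here. Their messenger RNA was measured by poly(A) RNA-seq in endometrium, the inner lining of the uterus, from 8 German Landrace gilts (young female pigs) on day 14 after insemination. All gilts were prepubertal, and follicle growth was stimulated with 750 IU of the gonadotropin PMSG and ovulation with 500 IU of hCG after 72 h. Pregnant gilts, 4 in number, received semen of a Pietrain boar at 24 h and 36 h after hCG, and their tissue came from hyperemic zones, the reddened places where embryos attach. The 4 gilts of the control group, which were not pregnant, received the supernatant left after spinning down semen of the same boar, and their tissue came from matching places. Each library held RNA pooled from 3 places along a single uterine horn of 1 animal, without the muscle layer. Pregnancy, sperm and the choice of hyperemic zones therefore cannot be told apart.

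T cells recognise peptides on MHC molecules through a receptor whose antigen-binding chains are non-covalently joined to the CD3 chains and the CD247 (zeta) homodimer, which carry the signal into the cell. The coreceptors CD4 and CD8 bring the kinase LCK to the receptor, ZAP70 then phosphorylates the scaffolds LAT and LCP2, and costimulatory receptors such as CD28 and ICOS set the strength of the response. In the pig many activated and memory helper T cells carry CD8A beside CD4, natural killer cells carry CD2 and CD8A without CD3, and T cells with gamma delta receptors are abundant in blood. The endometrium of early pregnancy in pigs is known for an influx of lymphocytes at attachment sites.

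Total counts ran from 28035007 to 41016150 per library. Spearman correlations over transcripts lay between 0.967 and 0.986 for libraries of the same group and between 0.916 and 0.957 for libraries of different groups, and every pair within a group differed by far more than counting noise. On the first principal component, control replicate 4 stood at −27.81, the pregnant libraries at 35.48 to 42.19 and the other controls at −46.07 to −42.32. All 11 matched markers of endometrial epithelium and all 12 of stroma and endothelium passed the filter on low counts. Levels are in CPM, read counts after TMM scaling of the library sizes, and means carry the SD of the 4 animals. A log2 change is that of pregnant over control endometrium with its SE; both it and its p come from edgeR's quasi-likelihood fit, and the p was adjusted by Benjamini-Hochberg over the 18783 transcripts tested.

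Most T cell genes were higher in pregnant endometrium. Of the 27 matched members 25 passed the filter on low counts, and of these 19 rose, 1 fell and 5 did not pass an adjusted p of 0.05. Among all transcripts tested, 11.2% were called higher and 10.1% lower, 21.3% in all. The 19 that rose had log2 changes of 1.09 to 3.26, so that each was at least 2-fold higher. The median log2 change over the 25 tested members was 1.42, beside −0.02 over all transcripts tested. The 4 pregnant values lay above the 4 control values for 20 of the 25 members and below them for 1, where among all transcripts tested this held for 13.2% and 12.9%. The 1 member that fell was CD69. Of the 20 members called, 18 were called with each library left out in turn, and CD8A and SH2D1A were the exceptions. In bulk tissue, fewer cells of a type and less RNA per cell cannot be told apart, and this holds for every level given here. The plot of levels by animal shows these values.

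**Figure D1:**
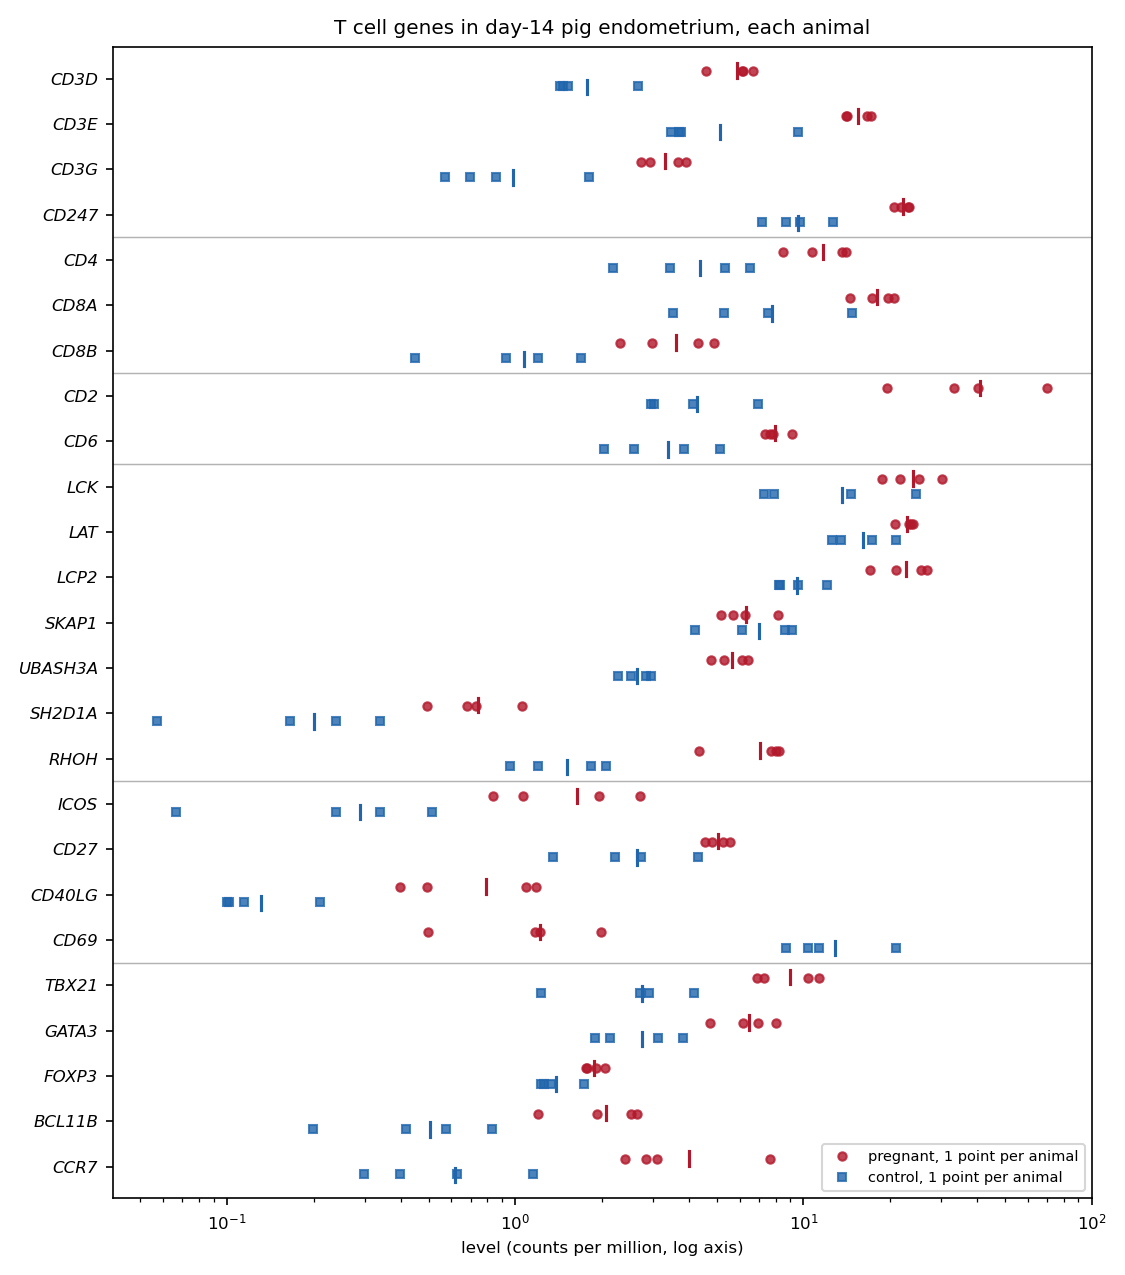
Level of each of the 25 tested T cell genes in each animal, in CPM on a log axis, with pregnant animals (circles) above control animals (squares) in each row and short bars at the group means. CD2 reached 70.2 CPM in pregnant replicate 3, and CD69 was the member whose control values all lay above its pregnant values.

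The chains of the T cell receptor complex rose together. CD3D, CD3E and CD3G lie close together on chromosome 9 of Sscrofa10.2. The gaps are 6504 bases between CD3E and CD3D and 1195 bases between CD3D and CD3G. CD3D had 4.6, 6.19, 6.12 and 6.68 CPM in pregnant replicates 1 to 4, against 1.53, 1.47, 1.43 and 2.66 CPM in control replicates 1 to 4 (Entrez gene 396661, chromosome 9, 50681601 to 50685278, minus strand, 5 exons). All pregnant values were above all control values, and among controls replicate 4 was the highest. Its log2 change was 1.73 ± 0.26 (edgeR adjusted p = 0.000941). CD3E had 14.1, 17.2, 16.6 and 14.2 CPM in pregnant replicates 1 to 4, against 9.56, 3.47, 3.75 and 3.69 CPM in control replicates 1 to 4 (Entrez gene 397455, chromosome 9, 50660851 to 50675097, plus strand, 9 exons). Control replicate 1 stood well above the other 3 controls, and still below every pregnant library. The log2 change of CD3E was 1.60 ± 0.31 (edgeR adjusted p = 0.00464), with 1.45 to 2.11 on leaving out 1 library at a time. CD3G had 2.72, 2.93, 3.9 and 3.66 CPM in pregnant replicates 1 to 4, against 1.8, 0.569, 0.697 and 0.859 CPM in control replicates 1 to 4 (Entrez gene 494013, chromosome 9, 50686473 to 50696066, plus strand, 7 exons). Control replicate 1 was again the highest of the controls, and the log2 change was 1.75 ± 0.36 (edgeR adjusted p = 0.00603). CD247, the zeta chain that carries most of the activation motifs of the receptor, had 21.8, 20.7, 23.1 and 23.3 CPM in pregnant replicates 1 to 4, against 12.6, 8.68, 9.75 and 7.16 CPM in control replicates 1 to 4 (Entrez gene 397302, chromosome 4, 91170153 to 91260194, plus strand, 8 exons). The pregnant values were close together and did not overlap the controls, with a log2 change of 1.22 ± 0.18 (edgeR adjusted p = 0.000791).

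All of the coreceptor genes rose, CD8A with the least margin. CD4, the coreceptor of helper and regulatory T cells, had 8.49, 13.6, 14 and 10.7 CPM in pregnant replicates 1 to 4, against 6.51, 3.44, 2.19 and 5.35 CPM in control replicates 1 to 4 (Entrez gene 404704, chromosome 5, 66326567 to 66352897, minus strand, 11 exons). The groups did not overlap, and the log2 change was 1.42 ± 0.31 (edgeR adjusted p = 0.00893). CD8A, which forms CD8 homodimers and heterodimers, had 14.5, 19.7, 20.6 and 17.3 CPM in pregnant replicates 1 to 4, against 14.7, 3.53, 5.31 and 7.56 CPM in control replicates 1 to 4 (Entrez gene 396627, chromosome 3, 60852736 to 60859737, minus strand, 6 exons). Control replicate 1 lay within the pregnant range and was just above pregnant replicate 1, so the groups overlapped. The log2 change of CD8A was 1.22 ± 0.36 (edgeR adjusted p = 0.0367), and the call was lost when control replicate 2, 3 or 4, or pregnant replicate 2, 3 or 4, was left out, with edgeR adjusted p between 0.0566 and 0.0951, the highest of any alternative. CD8B, the partner chain found mainly on cytotoxic T cells, lies 173 kb from CD8A on the opposite strand (Entrez gene 396636, chromosome 3, 60577407 to 60679554, plus strand, 6 exons). It had 2.3, 2.98, 4.3 and 4.91 CPM in pregnant replicates 1 to 4, against 1.7, 0.449, 0.929 and 1.2 CPM in control replicates 1 to 4. All pregnant values were above the controls, and the log2 change was 1.76 ± 0.40 (edgeR adjusted p = 0.00959).

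The surface receptors CD2 and CD6, which bind ligands on other cells and tune activation, both rose. CD2, an adhesion receptor of T and natural killer cells, had 19.6, 40.3, 70.2 and 33.3 CPM in pregnant replicates 1 to 4, against 6.95, 2.96, 3.02 and 4.12 CPM in control replicates 1 to 4 (Entrez gene 396662, chromosome 4, 113928522 to 113941698, minus strand, 5 exons). Pregnant replicate 3 was the highest and pregnant replicate 1 the lowest of the pregnant libraries, and even the lowest was above every control. Its log2 change of 3.26 ± 0.42 was the largest rise among the members (edgeR adjusted p = 0.000448), and it was 2.87 to 3.61 on leaving out 1 library at a time. CD6, a scavenger receptor family protein that regulates T cell activation, had 7.82, 9.09, 7.38 and 7.62 CPM in pregnant replicates 1 to 4, against 5.12, 2.57, 2.02 and 3.84 CPM in control replicates 1 to 4 (Entrez gene 100513519, chromosome 2, 10240960 to 10340160, minus strand, 14 exons). The groups did not overlap, and the log2 change was 1.24 ± 0.27 (edgeR adjusted p = 0.00893).

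The signalling proteins behind the receptor did not move as one. Of the 7 tested, 4 rose and 3 did not pass. RHOH, a blood-cell GTPase needed for ZAP70 and LCK function, ranged over 4.35 to 8.25 CPM in pregnant and 0.958 to 2.06 CPM in control endometrium, with a log2 change of 2.23 ± 0.31 (edgeR adjusted p = 0.000585; Entrez gene 100513215, chromosome 8, 32994682 to 33037010, plus strand, 4 exons). LCP2, the scaffold SLP-76, ranged over 17 to 26.9 CPM in pregnant and 8.2 to 12.1 CPM in control endometrium, a log2 change of 1.25 ± 0.19 (edgeR adjusted p = 0.00102; Entrez gene 100511843, chromosome 16, 58039299 to 58083079, plus strand, 20 exons). UBASH3A, a suppressor of receptor signalling, ranged over 4.78 to 6.4 CPM in pregnant and 2.27 to 2.95 CPM in control endometrium, a log2 change of 1.09 ± 0.20 (edgeR adjusted p = 0.00267; Entrez gene 100627915, chromosome 13, 216148486 to 216190628, plus strand, 14 exons). For these 3 genes the groups did not overlap. SH2D1A, the adaptor SAP, was rare, at 0.495 to 1.06 CPM in pregnant and 0.0573 to 0.339 CPM in control endometrium. Its log2 change was 1.88 ± 0.50 (edgeR adjusted p = 0.0215), and the call was lost when control replicate 3, or pregnant replicate 3 or 4, was left out, with edgeR adjusted p between 0.0502 and 0.0641, the highest of any alternative.

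LCK, the kinase bound to CD4 and CD8, had 18.7, 30.2, 21.7 and 25.3 CPM in pregnant replicates 1 to 4, against 24.6, 7.9, 7.27 and 14.6 CPM in control replicates 1 to 4 (Entrez gene 100233188, chromosome 6, 82843254 to 82852666, plus strand, 13 exons). Control replicate 1 stood above 2 of the pregnant libraries, and the groups overlapped. The log2 difference was 0.82 ± 0.35 with a 95% interval of 0.03 to 1.60 (edgeR adjusted p = 0.132), and without control replicate 1 it was 1.29 and passed (edgeR adjusted p = 0.011; 0.27 was the highest over the alternatives). LAT, the membrane scaffold downstream of ZAP70, had 23.6, 23.1, 24 and 20.8 CPM in pregnant replicates 1 to 4, against 20.9, 13.5, 12.6 and 17.2 CPM in control replicates 1 to 4 (Entrez gene 100517816, chromosome 3, 18825559 to 18830391, plus strand, 12 exons). Only control replicate 1 overlapped the pregnant range. The log2 difference of LAT was 0.51 ± 0.17 with a 95% interval of 0.13 to 0.89 (edgeR adjusted p = 0.0581), and it passed without control replicate 1 (0.0116), with DESeq2 (0.0358) and with limma voom (0.0432; 0.146 was the highest over the alternatives). SKAP1, an adaptor that links the receptor to integrin adhesion, had 5.16, 6.27, 8.17 and 5.67 CPM in pregnant replicates 1 to 4, against 8.64, 4.19, 6.1 and 9.13 CPM in control replicates 1 to 4 (Entrez gene 100521471, chromosome 12, 24088029 to 24198868, plus strand, 13 exons). The groups overlapped, with the highest value in control replicate 4, and the log2 difference was −0.15 ± 0.26 with a 95% interval of −0.73 to 0.43 (edgeR adjusted p = 0.726). SKAP1 lies 209 kb from TBX21 on the same strand of chromosome 12, and TBX21 rose. THEMIS, needed for thymocyte selection in mice, did not pass the filter: it had 4 reads in pregnant endometrium, all in replicate 3, and 0 in controls, so that no fold is given.

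**Figure D2:**
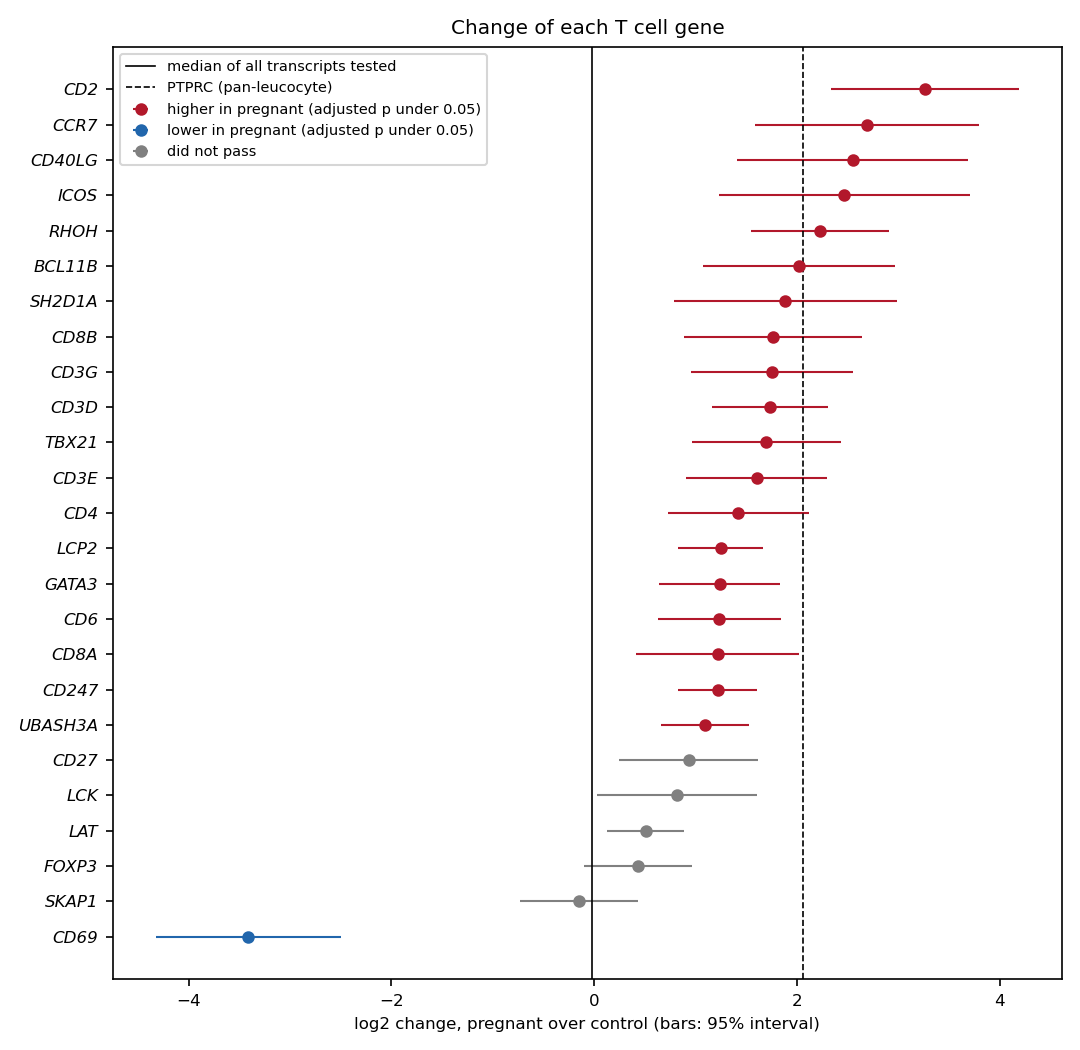
Log2 change of each tested T cell gene, pregnant over control, with bars for the 95% interval. The solid line marks the median of all transcripts tested (−0.02) and the dashed line PTPRC, the pan-leucocyte gene CD45 (2.05), and 5 of the 25 members lie to the right of the dashed line.

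Of the costimulatory and activation genes ICOS and CD40LG rose, CD69 fell and CD27 did not pass. ICOS, a costimulatory receptor of activated T cells, had 1.06, 0.836, 2.71 and 1.95 CPM in pregnant replicates 1 to 4, against 0.339, 0.239, 0.0664 and 0.515 CPM in control replicates 1 to 4 (Entrez gene 733597, chromosome 15, 118697581 to 118717447, plus strand, 6 exons). The groups did not overlap, and pregnant replicate 3 was the highest. The log2 change was 2.47 ± 0.56 (edgeR adjusted p = 0.01). CD40LG, by which helper T cells activate B cells and antigen-presenting cells, had 0.495, 1.18, 1.09 and 0.396 CPM in pregnant replicates 1 to 4, against 0.102, 0.21, 0.0995 and 0.115 CPM in control replicates 1 to 4 (Entrez gene 397231, chromosome X, 127636796 to 127647034, plus strand, 5 exons). All of these levels were low and did not overlap, with a log2 change of 2.55 ± 0.52 (edgeR adjusted p = 0.00539). CD28, the main costimulatory receptor of naive T cells, lies 198 kb from ICOS and did not pass the filter on low counts (Entrez gene 100515419, chromosome 15, 118398655 to 118499640, plus strand, 4 exons). It had 43 reads in pregnant and 7 in control endometrium, which is 6.07 times as many at equal depth (exact 95% interval 2.71 to 15.98, counting error only). Without the filter CD28 had a log2 change of 2.55 ± 0.78 (edgeR adjusted p = 0.0431). CD27, a TNF receptor family member of T and B cells, had 4.56, 5.25, 4.83 and 5.55 CPM in pregnant replicates 1 to 4, against 4.31, 1.35, 2.22 and 2.72 CPM in control replicates 1 to 4 (Entrez gene 100520023, chromosome 5, 66658751 to 66664134, minus strand, 6 exons). The groups did not overlap, although control replicate 1 came close. The log2 difference was 0.93 ± 0.31 with a 95% interval of 0.25 to 1.62 (edgeR adjusted p = 0.0556), and CD27 passed without control replicate 1 (0.00907), with DESeq2 (0.0211) and with limma voom (0.0286; 0.129 was the highest over the alternatives).

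CD69, a C-type lectin that marks recently activated and tissue-resident lymphocytes and is also made by other leucocytes, fell to 1.17, 0.496, 1.98 and 1.22 CPM in pregnant replicates 1 to 4, against 8.71, 11.3, 10.4 and 21 CPM in control replicates 1 to 4 (Entrez gene 397165, chromosome 5, 64909978 to 64916923, plus strand, 5 exons). The lowest control was more than 4 times the highest pregnant library, and control replicate 4 was the highest of all. The log2 change was −3.41 ± 0.41 with a 95% interval of −4.32 to −2.50 (edgeR adjusted p = 0.000265), and it was −3.75 to −3.07 on leaving out 1 library at a time. Without control replicate 4, the library that stood apart on the first principal component, it was −3.07. CD69 was called lower in every alternative run. Its exons share no bases with another gene of the deposited annotation.

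Among transcription factors and the homing receptor CCR7, 4 rose and FOXP3 did not pass. TBX21 (T-bet), the master factor of type 1 helper cells that is also used by natural killer cells, had 7.29, 11.3, 10.4 and 6.92 CPM in pregnant replicates 1 to 4, against 2.71, 1.23, 2.92 and 4.18 CPM in control replicates 1 to 4 (Entrez gene 100518804, chromosome 12, 23867196 to 23879453, plus strand, 6 exons). The groups did not overlap, and the log2 change was 1.70 ± 0.33 (edgeR adjusted p = 0.00461). GATA3, the factor of type 2 helper cells that many epithelia express too, had 6.93, 8.02, 6.18 and 4.73 CPM in pregnant replicates 1 to 4, against 3.83, 2.13, 1.89 and 3.12 CPM in control replicates 1 to 4 (Entrez gene 733631, chromosome 10, 69582742 to 69601479, minus strand, 5 exons). Here too the groups were apart, with a log2 change of 1.24 ± 0.27 (edgeR adjusted p = 0.00823). BCL11B, which keeps T cell identity, was low, at 1.2 to 2.64 CPM in pregnant and 0.199 to 0.83 CPM in control endometrium, with a log2 change of 2.02 ± 0.43 (edgeR adjusted p = 0.00717; Entrez gene 100154158, chromosome 7, 127764459 to 127855156, minus strand, 4 exons). FOXP3, the factor of regulatory T cells, had 2.05, 1.91, 1.75 and 1.77 CPM in pregnant replicates 1 to 4, against 1.73, 1.23, 1.33 and 1.26 CPM in control replicates 1 to 4 (Entrez gene 444998, chromosome X, 48152512 to 48170738, minus strand, 12 exons). The pregnant values lay just above the controls, with the lowest pregnant library at 1.75 CPM and the highest control at 1.73 CPM. The log2 difference was 0.43 ± 0.24 with a 95% interval of −0.10 to 0.97 (edgeR adjusted p = 0.234, 0.377 at most over the alternatives), and it was 0.38 to 0.58 on leaving out 1 library at a time. CCR7, the receptor that guides naive and central memory T cells and dendritic cells to lymph nodes, had 3.11, 2.85, 7.64 and 2.41 CPM in pregnant replicates 1 to 4, against 1.15, 0.299, 0.398 and 0.63 CPM in control replicates 1 to 4 (Entrez gene 396663, chromosome 12, 22140217 to 22152032, plus strand, 3 exons). Pregnant replicate 3 stood far above the other pregnant libraries, all of which were above the controls. The log2 change was 2.69 ± 0.50 (edgeR adjusted p = 0.0034), and 2.17 without pregnant replicate 3.

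The balance between subsets was followed within each animal, as the ratio of reads of a pair of genes. This removes differences in depth, and 9 ratios were tested by a two-sided exact permutation test over the 70 splits of the animals, with Benjamini-Hochberg adjustment over the 9. The smallest p these splits can give is 0.0286. None of the 9 ratios passed an adjusted p of 0.05, and at an unadjusted p under 0.05 there were 2. Both were at the smallest p and still had an adjusted exact permutation p of 0.129. A ratio that alone reached the smallest p could not pass, so not passing does not show an unchanged balance. The CD3 sum is the reads of CD3D, CD3E and CD3G together.

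The ratio of CD4 to CD8A reads was 0.584, 0.691, 0.678 and 0.62 in pregnant replicates 1 to 4, against 0.444, 0.975, 0.414 and 0.709 in control replicates 1 to 4. The 4 pregnant animals were close together inside the range of the controls (log2 difference 0.10, 95% interval −0.73 to 0.73, exact permutation p = 0.83, adjusted p = 0.83). The ratio of CD8B to CD8A, which is higher where the CD8 heterodimer of cytotoxic T cells prevails, was 0.159, 0.152, 0.209 and 0.285 in pregnant replicates 1 to 4, against 0.116, 0.131, 0.178 and 0.161 in control replicates 1 to 4. The groups overlapped (log2 difference 0.43, 95% interval −0.23 to 1.29, exact permutation p = 0.171, adjusted p = 0.309). Per read of the CD3 sum, CD4 was at 0.397 to 0.526 in pregnant and 0.375 to 0.743 in control animals (log2 difference −0.22, 95% interval −0.90 to 0.49, exact permutation p = 0.4, adjusted p = 0.45). CD8A was at 0.68 to 0.776 in pregnant and 0.642 to 1.14 in control animals (log2 difference −0.33, 95% interval −0.74 to 0.27, exact permutation p = 0.171, adjusted p = 0.309).

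Of CD4, CD8A, FOXP3 and CD2, the 4 genes set over the CD3 sum, the ratios of FOXP3 and CD2 did not overlap between the groups. The ratio of FOXP3 to the CD3 sum was 0.0966, 0.073, 0.0665 and 0.0728 in pregnant replicates 1 to 4, against 0.135, 0.225, 0.228 and 0.176 in control replicates 1 to 4. Every pregnant animal was below every control (log2 difference −1.29, 95% interval −1.77 to −0.49, exact permutation p = 0.0286, adjusted p = 0.129), which is the smallest p the design allows and did not pass the adjustment. The ratio of FOXP3 to CD4 was 0.243, 0.141, 0.126 and 0.166 in pregnant replicates 1 to 4, against 0.268, 0.359, 0.609 and 0.237 in control replicates 1 to 4. Pregnant replicate 1 lay just above control replicate 4, so the groups overlapped (log2 difference −1.07, 95% interval −2.27 to 0.04, exact permutation p = 0.0571, adjusted p = 0.171). The ratio of CD2 to the CD3 sum was 0.914, 1.53, 2.64 and 1.36 in pregnant replicates 1 to 4, against 0.54, 0.539, 0.515 and 0.572 in control replicates 1 to 4. The controls were within a narrow band, and all pregnant animals were above it (log2 difference 1.47, 95% interval 0.68 to 2.35, exact permutation p = 0.0286, adjusted p = 0.129). The ratio of TBX21 to GATA3 was 1.05, 1.41, 1.67 and 1.46 in pregnant replicates 1 to 4, against 0.709, 0.58, 1.54 and 1.34 in control replicates 1 to 4, with both groups overlapping (log2 difference 0.52, 95% interval −0.55 to 1.52, exact permutation p = 0.229, adjusted p = 0.343).

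**Figure D3:**
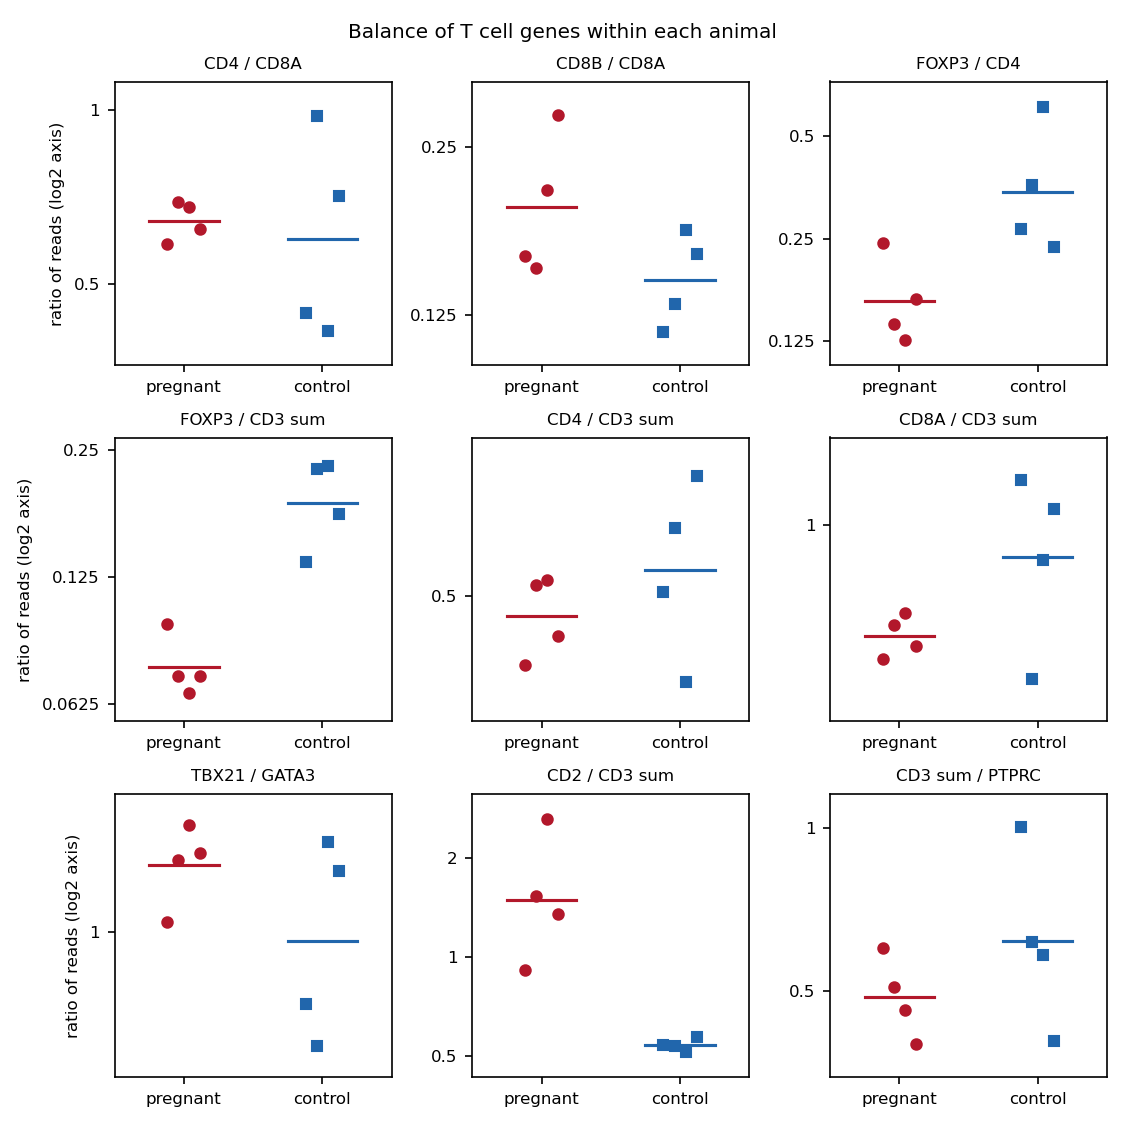
Ratio of reads between pairs of T cell genes within each animal, on a log2 axis, with pregnant animals left of control animals and a bar at the geometric mean of each group. FOXP3 per CD3 read and CD2 per CD3 read are the 2 panels in which the groups do not overlap.

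Receptor genes were also set beside PTPRC (CD45), which nearly all leucocytes express. PTPRC averaged 51.7 ± 11.4 CPM in pregnant and 12.4 ± 3.97 CPM in control endometrium and rose by 2.05 ± 0.24 (edgeR adjusted p = 0.000219). The ratio of the CD3 sum to PTPRC was 0.6, 0.508, 0.461 and 0.398 in pregnant replicates 1 to 4, against 1.01, 0.616, 0.583 and 0.404 in control replicates 1 to 4. The groups overlapped (log2 difference −0.35, 95% interval −1.33 to 0.56, exact permutation p = 0.286, adjusted p = 0.367). The log2 change of 20 of the 25 members was smaller than that of PTPRC, and it was larger for CD2, CCR7, CD40LG, ICOS and RHOH. These differences between members were not tested.

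Levels were compared between members per kilobase of exon, since the gene models differ in length from 387 bp for SH2D1A to 3111 bp for CD6, and short models may lack untranslated sequence. On this scale CD2 led in pregnant endometrium with 39.9 ± 20.9 CPM per kb, followed by CD247 (14.3 ± 0.788), LAT (13.1 ± 0.833), CD3E (12.6 ± 1.31) and LCK (11.4 ± 2.35), all in CPM per kb. LAT and CD3E, and CD3E and LCK, differed by less than the SD of either, and the other neighbours in that order by more than at least one SD; none of these differences was tested. In control endometrium CD69 led with 19.3 ± 8.29 CPM per kb, ahead of LAT (9.22 ± 2.18), LCK (6.48 ± 3.85) and CD247 (6.18 ± 1.5) on the same scale, where LCK and CD247 differed by less than their SD. In pregnant endometrium CD69 ranked 21 of 27 at 1.82 ± 0.912 CPM per kb. CD3D at 7.77 ± 1.19 and CD3G at 4.13 ± 0.709 CPM per kb in pregnant endometrium were below CD3E, with 2.33 ± 0.786 and 1.23 ± 0.696 against 4.15 ± 2.41 for CD3E in controls. CD8A exceeded CD4 per kilobase in both groups, at 8.32 ± 1.26 against 4.32 ± 0.958 CPM per kb in pregnant endometrium and 3.59 ± 2.26 against 1.61 ± 0.712 CPM per kb in controls. FOXP3 was at 1.23 ± 0.0919 CPM per kb in pregnant and 0.913 ± 0.153 CPM per kb in control endometrium.

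Animals of a group differed in a shared way. Pregnant replicate 1 was the lowest of its group for 15 of the 25 members and the highest for 1, and pregnant replicates 2 and 3 were the highest for 9 and 10. Control replicate 1 was the highest of its group for 15 members and control replicate 4 for 9, while control replicate 2 was the lowest for 12. The median deviation of the members from the mean of their group, on the log2(CPM + 0.5) scale, was −0.25 in pregnant replicate 1 and 0.20 in pregnant replicate 3, and 0.40 in control replicate 1 and −0.26 in control replicate 2. PTPRC followed this only in part: it was lowest in pregnant replicate 1 at 35.7 CPM and highest in pregnant replicate 4 at 61.5 CPM, and control replicate 4 was above control replicate 1 with 17.9 against 12.8 CPM. Without control replicate 1, 23 of the 25 members were called, 22 higher and 1 lower, and without control replicate 4, 19 were called, 18 higher and 1 lower.

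**Figure D4:**
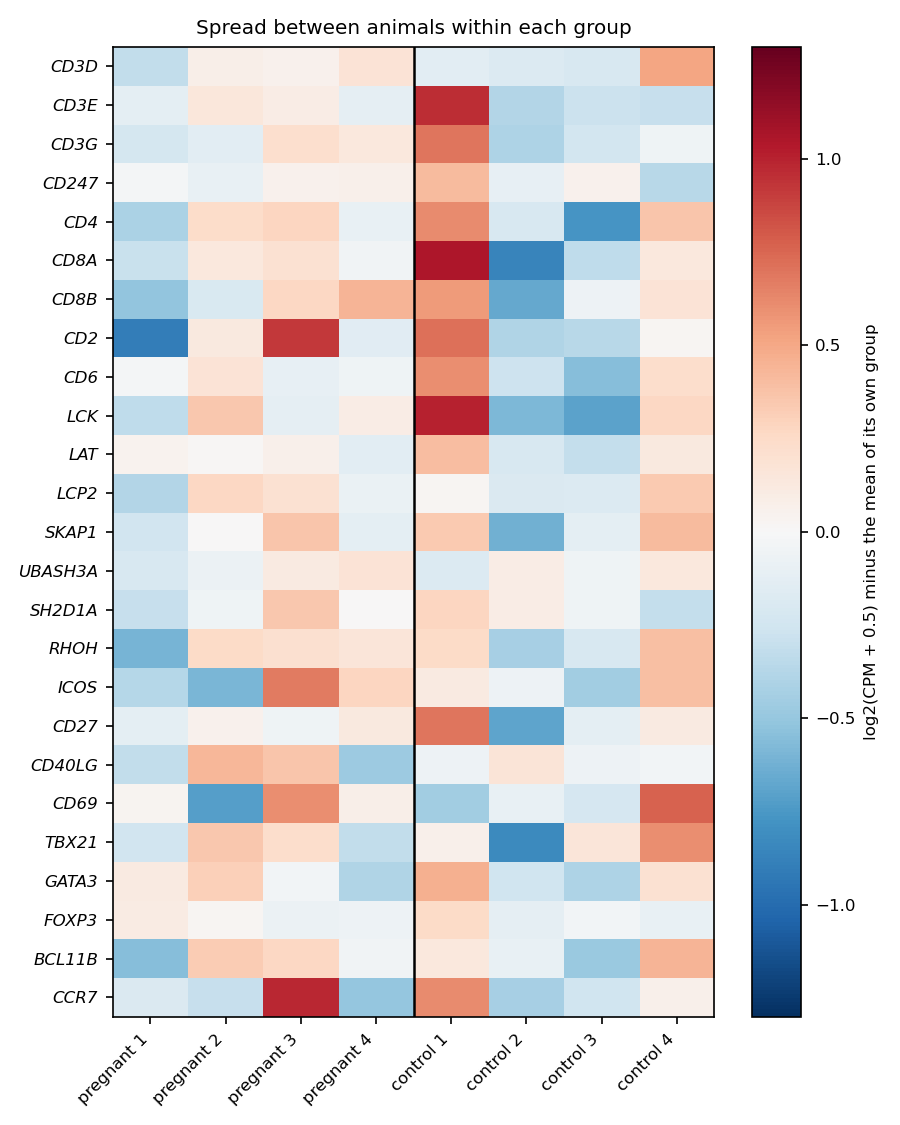
Deviation of each tested T cell gene from the mean of its own group, as log2(CPM + 0.5), for the 4 pregnant and then the 4 control libraries. Control replicate 1 is above its group mean for most members, with CD8A, LCK and CD3E the darkest, and CD2 and CCR7 are high in pregnant replicate 3.

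Other genes of T cell signalling and T cell state gave the setting for these changes. Of 26 tested signalling partners of the receptor 11 rose and 15 did not pass, with a median log2 change of 0.49. The smallest p among them belonged to PTPRC, to the kinase gene PRKCQ, which links the receptor to NF-kB (2.07 ± 0.33, edgeR adjusted p = 0.00142), and to the adaptor gene SLA (1.55 ± 0.27, edgeR adjusted p = 0.00214). Of 20 tested genes of T helper subsets and T cell state 13 rose and 7 did not pass, with a median log2 change of 1.15. PRDM1, a factor of effector lymphocytes and plasma cells, rose by 1.16 ± 0.20 (edgeR adjusted p = 0.00192). CTLA4, the inhibitory receptor that competes with CD28, passed and had 17, 88, 25 and 30 reads in pregnant replicates 1 to 4, and 1 read in controls, in replicate 4, which is 158 times as many at equal depth (exact 95% interval 28.0 to 6280). Pregnant replicate 2 held 88 of the 160 reads, and without it the ratio was 101 (17.5 to 4041). Without control replicate 4 controls had 0 reads, and CTLA4 was 38.3-fold higher in pregnant endometrium when a floor of 3 counts stood for the controls. The exact 95% interval without that library began at 30.8, counting error only. Of the 6 cytokine genes in that list IL10, which encodes a cytokine that restrains immune responses, had 157 reads in pregnant and 55 in control endometrium (1.22 ± 0.311 CPM in pregnant and 0.428 ± 0.0362 CPM in control endometrium) and was 2.83-fold higher (edgeR adjusted p = 0.00694), without overlap between the groups. The other cytokine genes did not pass the filter on low counts. IFNG had 26 reads in pregnant and 4 in control endometrium, IL2 had 2 in each group, IL21 and IL4 had 4 and 2 in pregnant endometrium and 0 in controls, and IL17A had 0 in all 8 libraries.

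**Figure D5:**
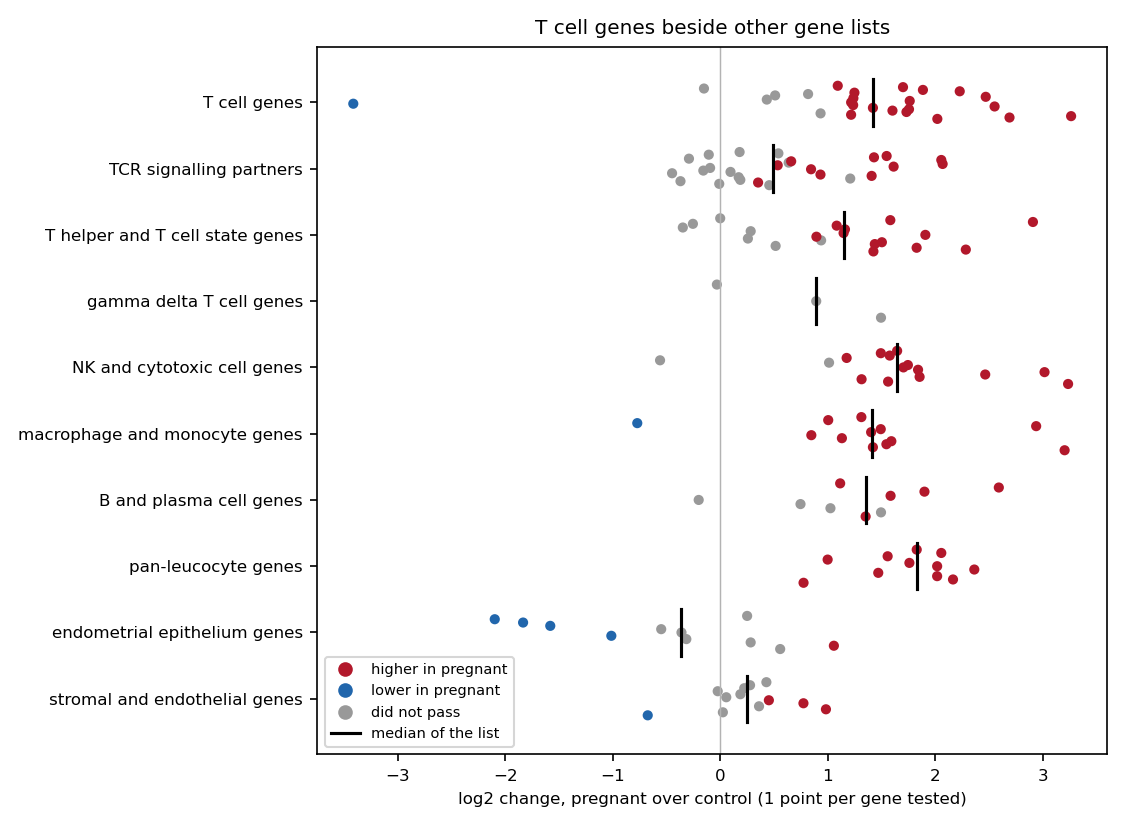
Log2 change, pregnant over control, of each tested gene in the T cell members and in 9 other lists, with a black bar at the median of the points of each list. The T cell members, natural killer, macrophage and pan-leucocyte genes lie mostly to the right of 0, and CTLA4 is left out of the points because controls had 1 read.

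Most tested markers of other leucocytes moved with the T cell genes. All 11 tested pan-leucocyte genes rose, with a median log2 change of 1.83 and a summed level of 476 to 644 CPM in pregnant and 172 to 261 CPM in control endometrium. PTPRC is 1 of these 11 and is also counted among the signalling partners. Of 15 tested natural killer and cytotoxic genes 13 rose and 2, KLRK1 and NCAM1, did not pass (median log2 change 1.64). KLRB1, KLRD1, NCR3 and SH2D1B of that list did not pass the filter on low counts. The summed level of the list was 208 to 304 CPM in pregnant and 59.5 to 112 CPM in control endometrium. CD244, a receptor of natural killer and cytotoxic T cells, rose by 3.23 ± 0.32, and GNLY and GZMA, which encode cytotoxic granule proteins, by 2.46 ± 0.28 and 3.01 ± 0.35. Of 12 tested macrophage and monocyte genes 11 rose and 1, MRC1, fell (median 1.41), with a summed level of 1177 to 1549 CPM in pregnant and 398 to 717 CPM in control endometrium. The call of MRC1 was lost when control replicate 2 or 4, or pregnant replicate 1, 3 or 4, was left out, with edgeR adjusted p between 0.0649 and 0.0841. Of 9 tested B and plasma cell genes BANK1, JCHAIN, TNFRSF17, POU2AF1 and MZB1 rose and 4 did not pass (median 1.35), with a summed level of 56.1 to 249 CPM in pregnant and 36.5 to 47.9 CPM in control endometrium. Of the genes linked to gamma delta T cells 3 were tested, BLK, CD163L1 and ZBTB16, and 0 passed with edgeR, 1 with DESeq2 (BLK, adjusted p = 0.0322) and 0 with limma voom. At an unadjusted p under 0.05 edgeR had 1, BLK. BLK is also in the B and plasma cell list, so it is counted in both lists. The receptor constant genes TRDC, TRGC1 and TRGC2 were not matched. In the epithelial list KRT8, KRT18, KRT19 and ESRP1 fell, CLDN4 rose and 6 of 11 tested did not pass (median −0.36), with a summed level of 1786 to 2469.9 CPM in pregnant and 2366 to 3576 CPM in control endometrium. In the stromal and endothelial list LUM, HAND2 and KDR rose, COL3A1 fell and 8 of 12 tested did not pass (median 0.25). The share called over all transcripts tested was 21.3%, with 10.1% lower. The summed level of this list was 11056 to 16182 CPM in pregnant and 17618 to 21366 CPM in control endometrium. A sum weighs the most abundant genes most, and here it was lower although the median was above 0. Whether the amount of stroma differed was not tested. JCHAIN, TNFRSF17, MZB1, LUM and COL3A1 did not pass in at least 1 alternative run. No matched marker of these cell lists was at 0 in all libraries. CD2, CD8A, TBX21, LAT, CD69, CD27 and CCR7 are among the members shared with other leucocytes, and GATA3 is shared with epithelia. This list is not complete. The part of other cells in the changes of the T cell genes was not tested.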

How the data were processed

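Endometrial RNA of 4 pregnant and 4 control gilts was sequenced, 1 library per animal. The files deposited by the authors hold unnormalized counts of reads over transcripts, 1 file a library, with exon positions on Sscrofa10.2. CASAVA 1.6, TopHat 1.4, Cufflinks 1.3 and DESeq were used per the submitters' processing notes. The counting tool is not given in the sources used here, and the kit did not mark strand. Gene symbols came from a RefSeq table of Sscrofa11.1, used for names only: 16270 of 21064 Entrez genes matched by ID and 16373 with transcript accessions added. Each gene was read from its most abundant transcript by mean count, and 26 of the 27 matched members had 1 transcript. Positions are those of the deposited annotation, counted from 1.

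edgeR 4.0.16 under R 4.3.3 tested the counts (TMM scaling, filterByExpr minimum 10, quasi-likelihood fit in its robust form with a group term alone), with p adjusted over 18783 transcripts at 0.05. Ratios were log2 of counts with 0.5 added to each, and their 95% intervals invert the exact test. DESeq2 1.42.0 and limma 3.58.1 (voom) were alternatives, with other scalings, no filter, 1 transcript per gene, the replicate number as a block and each library left out. The edgeR steps were tested on simulated data. PCR reads are not independent molecules, so counting intervals cover counting error only.

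The members and lists were chosen with earlier results of these data known. All members are named, with the genes of the ratios, up to 3 genes of each other list with the smallest p, and genes that a small count singles out. A gene that this rule takes in is not reported here. The cytokine genes are outside this rule and were picked once their values had been seen.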

Additional observations from a re-analysis of the deposited data

Results flagged for a closer look

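In 5 of 68 groups of 4 animals 1 value stood apart from the other 3, by the gap to its nearest neighbour as a share of the range (Dixon's test at its 95% critical value). Chance flags about 1 group in 20. CCR7 reached 7.64 CPM in pregnant replicate 3, where the other pregnant libraries had 2.41 to 3.11 CPM. RHOH was at 4.35 CPM in pregnant replicate 1, where the others had 7.72 to 8.25 CPM. CD3E was at 9.56 CPM in control replicate 1, where the other controls had 3.47 to 3.75 CPM. CD3D was at 2.66 CPM in control replicate 4, where the others had 1.43 to 1.53 CPM. CD40LG was at 0.210 CPM in control replicate 2, where the others had 0.0995 to 0.115 CPM, a difference of a few reads. All 5 genes passed the test with each library left out in turn.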

How the results depend on the processing

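Of the 25 tested T cell genes 20 were called, and 18 to 23 on leaving out 1 library at a time; other settings gave 19 to 22 (22 with DESeq2 and with limma voom). Among all transcripts 4009 were called, 2864 to 4127 on leaving out 1 library. With library totals alone as the scale, 33.6% of calls were higher in pregnant endometrium, against 52.7% with TMM, and the median log2 change of all transcripts was −0.15 in place of −0.02; 20 members were called in both. The log2 difference of SKAP1, −0.15, was −0.33 to 0.0024 on leaving out 1 library, above 0 without control replicate 4. The log2 ratio of CD4 to CD8A, 0.10, was −0.071 to 0.34 on leaving out 1 library, below 0 without control replicate 1 (−0.04) or 3 (−0.071). The cause was not tested. This ratio passed in no setting, but the settings left little or no room to pass. The exact test could give no p below 0.125 with the replicate block, or below 0.0286 with a library left out, before adjustment. With group means taken out, the correlations of same-numbered libraries were 0.19, −0.09, −0.03 and 0.09. Differently numbered libraries were not compared, so these values cannot decide whether replicate numbers pair the animals. With the replicate number as a block 19 members and 3883 transcripts were called, and SH2D1A did not pass (edgeR adjusted p = 0.0517). Genes with few reads, such as CD28, THEMIS and IFNG, are limited by depth. The values of CTLA4 with a library left out were added after seeing the data.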
